A study of Mus musculus with 9 samples.

Results

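Smad6, Smad7 and Bambi encode feedback inhibitors of BMP signalling, and their loci were described here by chromatin immunoprecipitation followed by sequencing (ChIP-seq) for SMAD1, T (Brachyury) and TCF1. The loci were fixed as genome intervals and not by any measured value. In build mm9 they were chromosome 9 from 63770000 to 63900000 for Smad6, chromosome 18 from 75490000 to 75590000 for Smad7, and chromosome 18 from 3480000 to 3545000 for Bambi. They held 129, 99 and 64 windows of 2 kb that step by 1 kb, 292 of the 2654924 windows in the deposited tables, and all 292 passed the filter on input level.

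BMP ligands activate receptors that phosphorylate SMAD1, which then enters the nucleus with SMAD4 and binds regulatory DNA of its target genes. SMAD6 and SMAD7 are inhibitory SMADs. SMAD6 acts mainly on the BMP branch, whereas SMAD7 also acts on the TGF-beta and activin branch. BAMBI is a membrane pseudoreceptor that lacks the kinase domain of the type I receptors it resembles. All 3 genes are known in many cell types as genes that BMP signalling itself induces, which closes a negative feedback loop. T belongs to the T-box family and acts in the primitive streak and mesoderm, and TCF1 is a DNA-binding partner of beta-catenin in WNT signalling.

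The study followed mouse epiblast-like cells during their conversion into cells that resemble primordial germ cells. All libraries came from strain C57BL/6 and are labelled EpiLC, and all were from cells carrying a reporter, either Prdm14-mVenus (PV) or Blimp1-mVenus (BV). The PV line gave a T library and a SMAD1 library of 36 h. The BV line gave a TCF1 library and SMAD1 libraries of 12, 24 and 36 h. Sheared chromatin without antibody served as input, 1 library titled PV, 1 titled BV and 1 titled BVSC, which is also labelled BV. Epiblast-like cells were made with activin A and bFGF and then grown as floating aggregates with LIF, with or without BMP4 and WNT3A. The cytokines given to each library are not stated in the labels, and neither is a time for T or TCF1. ChIP counts give no expression level, so the labelled cell type was not checked against marker genes. Each group was 1 library, so no difference below has a replicate check or a p-value.

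The sequence at the start of Smad6 is shown for its matches to SMAD-binding motifs. These matches could not be set beside the SMAD1 signal of the locus. RefSeq places Smad6 on the minus strand of chromosome 9 in GRCm38.p6. The bases below run 5′ to 3′ from 250 before the transcription start to 4 after it, with matches to GTCTAGAC and GGAGCC in capitals.
Smad6: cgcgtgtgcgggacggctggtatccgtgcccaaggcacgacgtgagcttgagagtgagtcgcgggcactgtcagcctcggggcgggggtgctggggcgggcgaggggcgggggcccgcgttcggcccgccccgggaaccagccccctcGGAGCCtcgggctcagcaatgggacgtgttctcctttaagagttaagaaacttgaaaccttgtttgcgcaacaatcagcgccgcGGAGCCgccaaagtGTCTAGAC
GTCTAGAC, which was searched for after the sequence had been read, is the palindromic form of the SMAD-binding box, and its single match spans the transcription start, from position -4 to position 4. GGAGCC, a GC-rich element of the kind bound by SMAD1 in BMP target genes, matched at positions -102 to -97 and at positions -18 to -13. Among 32851 RefSeq promoters of 300 bases, 0.213% held GTCTAGAC and 30.8% held GGAGCC on either strand. The GC palindrome GGCGCC (in 11.9% of promoters), the T half-site TCACACCT (1.28%) and the TCF sequence CTTTGAT (3.73%) had no match on either strand of the Smad6 promoter. This sequence comes from GRCm38 and the windows from mm9, so it was not placed on the windows, and no match is taken as a bound site.

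ChIP libraries held between 14925074 and 43354004 reads and inputs between 42532115 and 134657262, counted in every other window. A mean autosomal window therefore held 11.8 counts in the shallowest ChIP library, SMAD1 at 36 h in BV, and 105.9 in input BV. Counts were divided by the library's mean over autosomal windows, which gives a scaled count of 1 for a mean window. Enrichment is the scaled ChIP count plus 0.5, divided by the scaled count of the input of the same line plus 0.5. The plain ratio has no pseudocount and carries an exact (Clopper-Pearson) 95% interval on the split of the ChIP and input counts, which covers counting error only.

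No window of the 3 loci was enriched 4-fold with a scaled ChIP count of 4 or more in any library, the level used to call a region. Over the 2367750 windows of the autosomes and the X chromosome that passed the filter, the share called was 0.0482% for T and 0.00283% for TCF1. For the SMAD1 libraries it was 0.00557% at 36 h in PV, and in BV 0.00946%, 0.00405% and 0.000887% by time. At a lower level of 2-fold, T reached it in 9 of the 292 windows (3.08%, against 0.475% of all windows), and 3-fold in 3 windows (1.03%, against 0.103%). TCF1 reached it in 2 windows (0.685%, against 0.0986%). SMAD1 reached it in 5 windows at 12 h (1.71%, against 0.166%), 3 at 24 h (1.03%, against 0.0342%), 2 at 36 h in PV (against 0.0584%) and 2 at 36 h in BV (against 0.0521%). Neighbouring windows share reads, so these counts stand for fewer separate sites. The Smad6 and Smad7 loci were also slightly above input as a whole in all 6 ChIP libraries, which enters these shares. Scaled by the locus median, 4 windows reached 2-fold for T, 0 for TCF1 and 0 for SMAD1 in PV. For SMAD1 in BV they were 2, 1 and 1 by time. The weak signals of the loci were in 1 place each for SMAD1 at Smad6 and Bambi, and in 2 places at Smad7, and the highest T windows lay elsewhere in each locus.

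At Smad6, SMAD1 enrichment was highest at 63868001 to 63870001, the window with the highest mean over the 4 SMAD1 libraries (2.34-fold). Enrichment there was 2.76 at 12 h (28 counts), 1.91 at 24 h (22 counts) and, at 36 h, 2.29 in PV (71 counts) and 2.48 in BV (20 counts). In the overlapping window at 63869001, enrichment was 1.86 at 36 h in PV, and 2.26, 1.90 and 2.51 in the BV libraries of 12, 24 and 36 h. These were the only adjoining windows of the 3 loci with a mean of 2-fold or more. Plain ratios at 63868001 were 5.04 at 12 h (95% interval 3.004 to 8.36), 3.09 at 24 h (1.76 to 5.32), 3.31 at 36 h in PV (2.01 to 5.67) and 4.39 at 36 h in BV (2.44 to 7.66). All 4 intervals lay above 1 and overlapped one another. The summit of each locus was chosen for high SMAD1 enrichment, which favours ratios above 1, and the intervals leave this choice out. The BV ratios here also shared a single input count of 41.

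The same window had the lowest count of the Smad6 locus in each of the 3 inputs. Its scaled input was 0.627 in input PV, 0.387 in input BV and 0.516 in input BVSC, against locus medians of 1.34, 1.25 and 1.14. The scaled SMAD1 counts were 1.95 at 12 h and 1.20 at 24 h, and at 36 h they were 2.08 in PV and 1.70 in BV. Locus medians of these libraries lay between 1.46 and 1.58, so at 24 h the window stood below the locus median. With the input averaged over the locus, enrichment at 12 h was 1.41 instead of 2.76. T at this window had an enrichment of 1.85 and TCF1 1.45, also above 1. Their scaled counts, 1.59 and 0.786, were below the locus medians of 1.65 and 1.71. The TCF1 count was the lowest of the locus. With the input averaged over the locus, enrichment was 1.13 for T and 0.739 for TCF1. Low input thus moved with the enrichment at the Smad6 summit, and its part in the result was not tested.

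At Smad7, the window with the highest mean SMAD1 enrichment was 75525001 to 75527001, at 1.99-fold and thus just under 2. Enrichment was 2.02 at 12 h (29 counts), 2.32 at 24 h (44 counts) and, at 36 h, 1.82 in PV (77 counts) and 1.83 in BV (21 counts). Plain ratios were 2.71 at 12 h (1.71 to 4.20), 3.21 at 24 h (2.17 to 4.70), 2.22 at 36 h in PV (1.46 to 3.43) and 2.39 at 36 h in BV (1.40 to 3.91). All 4 libraries stood above input with overlapping intervals, in a window chosen for high SMAD1. Its scaled SMAD1 counts, 1.78 to 2.40, were above the locus medians of 1.44 to 1.58, and its scaled input was below the locus median in all 3 inputs, for example 0.746 against 1.22 in input BV. With the input averaged over the locus, enrichment at 12 h was 1.48.

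A second Smad7 window, 24 kb to the left at 75501001, was the highest of the locus at 12 h. Enrichment was 2.47 at 12 h (36 counts), 1.98 at 24 h (35 counts), 1.85 at 36 h in PV (73 counts) and 1.46 at 36 h in BV (15 counts). TCF1 measured 1.93 there and T 1.64, so all 6 libraries were above 1 in this window. In the RefSeq order of genes, the lncRNA Gm20544 lies before Smad7, and the lncRNA Gm41776 and the gene Ctif lie after it. The interval of 100 kb may therefore hold neighbours of Smad7, and windows were not assigned to gene bodies.

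At Bambi, SMAD1 was highest at 3507001 to 3509001, and at 12 and 24 h the ChIP counts themselves were among the highest of the locus. Enrichment was 2.59 at 12 h (38 counts) and 2.24 at 24 h (41 counts), and at 36 h it was 1.51 in PV (49 counts) and 1.46 in BV (15 counts). The scaled counts at 12 and 24 h, 2.65 and 2.23, stood against locus medians of 1.05 and 1.09. From the highest of the 64 windows, the summit count had rank 1 for 12 h and 2 for 24 h, and for 36 h it had rank 15 in PV and 23 in BV. At the Smad7 summit the ranks among 99 windows were 12 for 12 h and 2 for 24 h, and for 36 h they were 3 in PV and 27 in BV. At the Smad6 summit they were 11, 106, 8 and 42 of 129 in the same order of libraries, so high counts were not particular to Bambi and held in some libraries only. Plain ratios were 3.69 at 12 h (2.43 to 5.52), 3.11 at 24 h (2.07 to 4.61), 1.85 at 36 h in PV (1.12 to 3.09) and 1.78 at 36 h in BV (0.947 to 3.12). The interval of the BV library at 36 h included 1. With the input averaged over the locus, enrichment was still 2.09 at 12 h and 1.81 at 24 h, but 1.23 at 36 h in PV and 1.18 at 36 h in BV. The value at 12 h changed less with this input than at Smad6 or Smad7, although the scaled input BV of the summit was also low, 0.718 against a locus median of 1.00. Input PV was 0.776 against a locus median of 1.06.

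**Figure D1:**
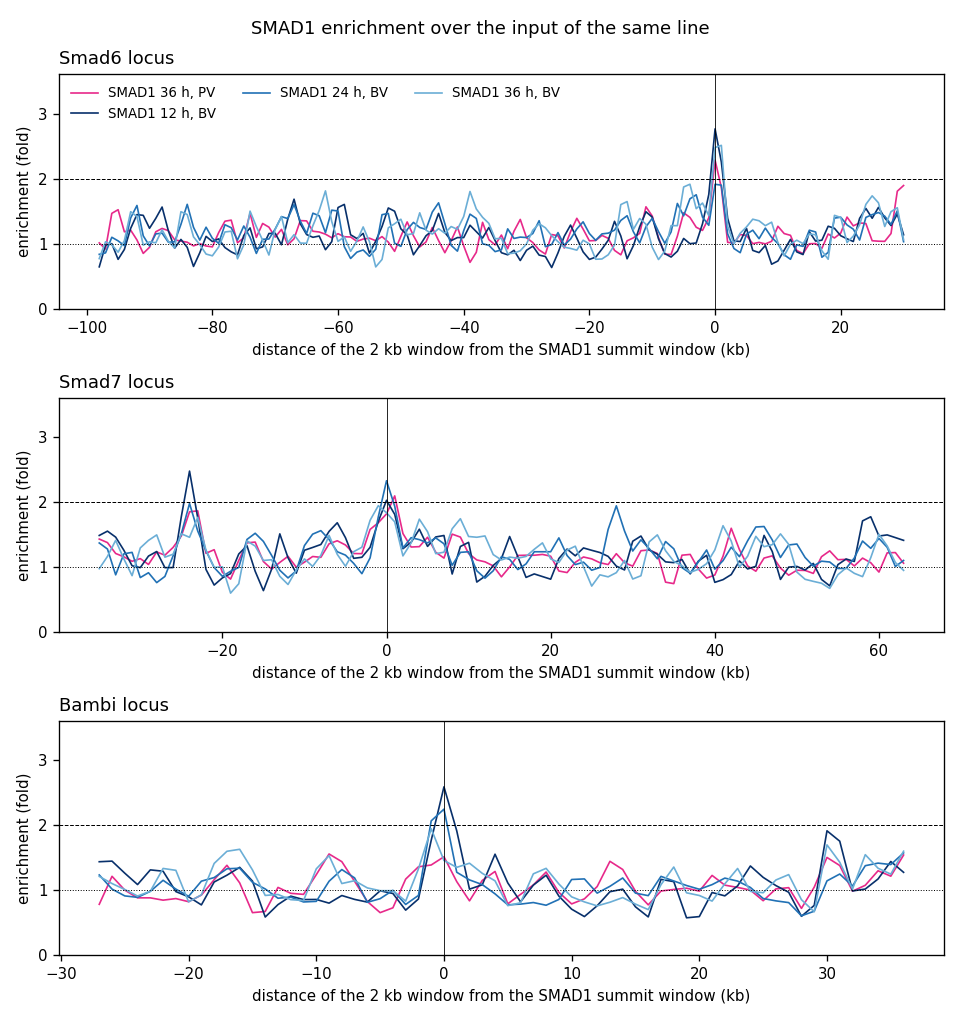
SMAD1 enrichment over the input of the same line (y axis, fold) in each 2 kb window, by distance from the SMAD1 summit window of the locus (x axis, kb), 1 line per library; the dashed line marks 2-fold. The highest values are at or next to the summit, between 1.91 and 2.76, except for the Smad7 window 24 kb to the left at 12 h (2.47) and the PV library at Bambi, which reaches 1.56.

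**Figure D2:**
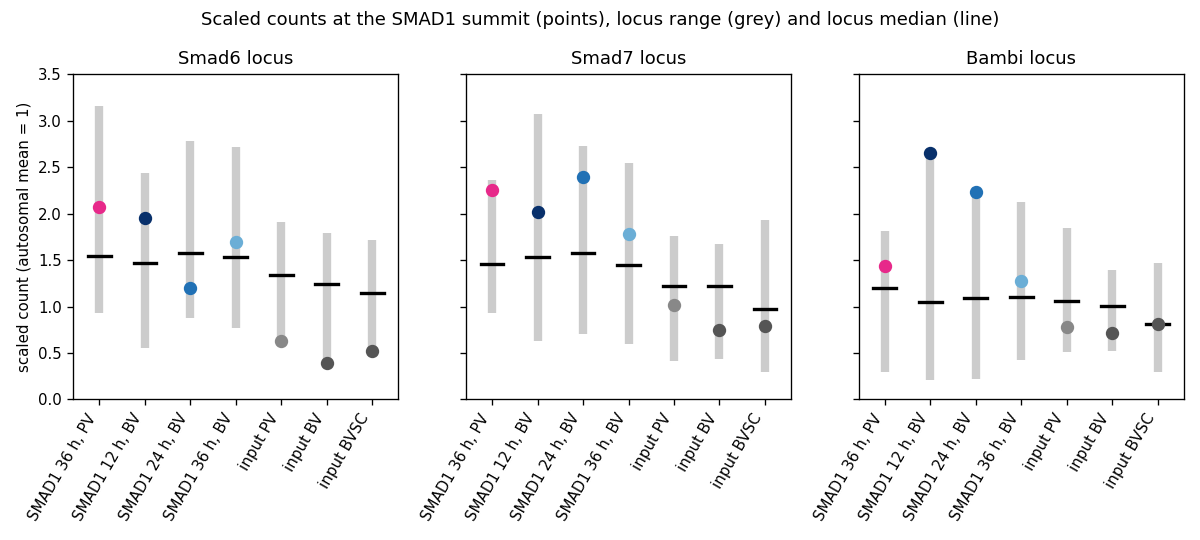
Scaled counts (y axis, autosomal mean 1) of 4 SMAD1 libraries and 3 inputs at the SMAD1 summit window (points), with the median (black line) and range (grey bar) over all windows of the locus. At Smad6 the input points are at the bottom of their range (0.387 to 0.627), and at Bambi the points for SMAD1 at 12 and 24 h are at 2.65 and 2.23, above medians of 1.05 and 1.09.

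The time course in BV and the 36 h pair of lines asked whether SMAD1 at these genes moved with time or line. Differences in log2 enrichment between 24 and 12 h were -0.53 at Smad6, 0.20 at Smad7 and -0.20 at Bambi. Between 36 and 12 h they were -0.16 at Smad6 (interval -0.85 to 0.53), -0.14 at Smad7 (-0.82 to 0.54) and -0.83 at Bambi (-1.51 to -0.13). Of the 12 differences between SMAD1 libraries at the 3 summits, the last was the only one whose counting interval did not include 0. The 12 intervals were not adjusted for their number and partly share libraries, so this 1 does not establish a change. As scaled counts, 36 h was at 0.481 of 12 h at the Bambi summit (0.246 to 0.895).

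That lower value at the Bambi summit was not seen at 3506001, which was named as the highest Bambi window at 36 h in BV. At 3506001, which overlaps the summit, enrichment was 1.77 at 12 h (27 counts), 2.07 at 24 h (42 counts) and 1.94 at 36 h (25 counts) in BV, and the difference between 36 and 12 h was 0.14. In the Bambi window highest in PV, 3498001, the difference was 0.93, with an enrichment of 0.803 at 12 h. The scaled count at 36 h in BV there was 2.56 times that at 12 h (1.15 to 6.08), an interval above 1. The choice of 3506001 favours a higher value at 36 h than at 12 h, and 3498001 was also chosen on a 36 h library. No course over time common to the Bambi windows was measured, and these windows do not settle whether the lower value reached beyond the summit. At the Smad6 and Smad7 summits the 36 h values differed from those at 12 h by less than the counting error. At the other Smad7 window, 75501001, the scaled count at 36 h was 0.508 of that at 12 h (0.258 to 0.950), a log2 difference in enrichment of -0.76. That window was named as the highest of its locus at 12 h, which favours a lower value at another time. The Bambi summit was chosen on the mean over the 4 SMAD1 libraries, in which 12 h and 36 h in BV count alike. It was nonetheless also the highest Bambi window at 12 h and at 24 h, and not at 36 h. A high count at 12 h could thus have helped to choose it, which favours a lower value at 36 h there too.

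Between the lines at 36 h, PV minus BV in log2 enrichment was -0.12 at Smad6 (-0.70 to 0.47), -0.01 at Smad7 (-0.59 to 0.57) and 0.06 at Bambi (-0.59 to 0.69). These intervals rest on the ChIP counts only and hold both inputs fixed, so counting error of the inputs is left out. At the Smad6 summit the scaled input PV was 1.62 times input BV (0.909 to 2.80). The scaled count in PV was 1.22 times that in BV at Smad6 (0.735 to 2.12), 1.26 times at Smad7 (0.771 to 2.15) and 1.12 times at Bambi (0.620 to 2.16). The counts thus leave room at each summit for a level about 2-fold higher in PV and also for a lower one, down to 0.620 times at Bambi. They do not show that the lines were alike. The PV library was the deepest, with a mean of 34.2 counts per window against 11.8 in BV at 36 h.

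T reached the highest enrichments of the 3 loci, at Smad6 and Smad7, in windows where SMAD1 of the same line stood near its input. These windows were chosen as the highest for T in each locus, which favours a T count above that of SMAD1, so the ratios of T to SMAD1 there are a description and their intervals leave the choice out. At Smad6, T reached 3.23 at 63808001 to 63810001, with 91 T counts and 46 input PV counts (plain ratio 4.05, 2.81 to 5.90). The window before it measured 2.68 and the window after it 1.77. SMAD1 in PV measured 1.16 there (57 counts), and the scaled T count was 3.34 times the scaled SMAD1 count (2.37 to 4.73). This window lay 60 kb from the SMAD1 summit. In BV, TCF1 there measured 1.29 and SMAD1 between 1.04 and 1.56, lowest at 36 h.

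At Smad7, T reached 3.16 at 75542001 to 75544001 with 84 counts and 43 input counts (plain ratio 4.00, 2.74 to 5.92), and 3.12 in the next window. SMAD1 in PV measured 1.18 there (55 counts), and the scaled T count was 3.19 times that of SMAD1 (2.25 to 4.57). The window lay 17 kb from the SMAD1 summit. In BV, TCF1 measured 1.05 and SMAD1 between 0.842 and 1.16, lowest at 12 h. In the locus, 6 of 99 windows reached 2-fold for T. Apart from this pair they were at 75502001 (2.07), 75526001 (2.44), 75529001 (2.29) and 75530001 (2.20). At 75526001, beside the SMAD1 summit, SMAD1 in PV measured 2.09, and the input PV count was 17.

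At Bambi, T peaked at 3520001 with 2.02, from 32 counts and 24 input counts, 13 kb from the SMAD1 summit. The plain ratio was 2.73 (1.56 to 4.84). In that window input PV stood at 0.622 of input BV (0.384 to 0.969), and with the input averaged over the locus the T value was 1.57. The scaled T count was 1.56 times that of SMAD1 in PV (0.952 to 2.52), so T and SMAD1 could not be told apart there at this depth. Across all windows, 0.0851% reached the T value of the Smad6 window, 0.0900% that of the Smad7 window and 0.457% that of the Bambi window. At the Smad6 summit, 0.0256% of windows reached the SMAD1 value of 12 h and 0.0551% that of 24 h, and the shares for 36 h were 0.0245% in PV and 0.00819% in BV. At the Smad7 summit the shares were 0.150% for 12 h, 0.0152% for 24 h, and 0.165% in PV and 0.192% in BV for 36 h. At the Bambi summit they were 0.0318% for 12 h, 0.0167% for 24 h, and 1.68% in PV and 3.76% in BV for 36 h. At Smad6 the T window thus had a higher enrichment than the SMAD1 summit, but not a higher plain ratio than SMAD1 at 12 h. Its value was more common within its own library than that of the SMAD1 summit in any of the 4 SMAD1 libraries. At the SMAD1 summits T measured 1.85 at Smad6, 1.62 at Smad7 and 1.64 at Bambi, within the counting error of the SMAD1 library of the same line. The scaled T count there was above its locus median at Smad7 and Bambi, and below it at Smad6 (1.59 against 1.65).

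**Figure D3:**
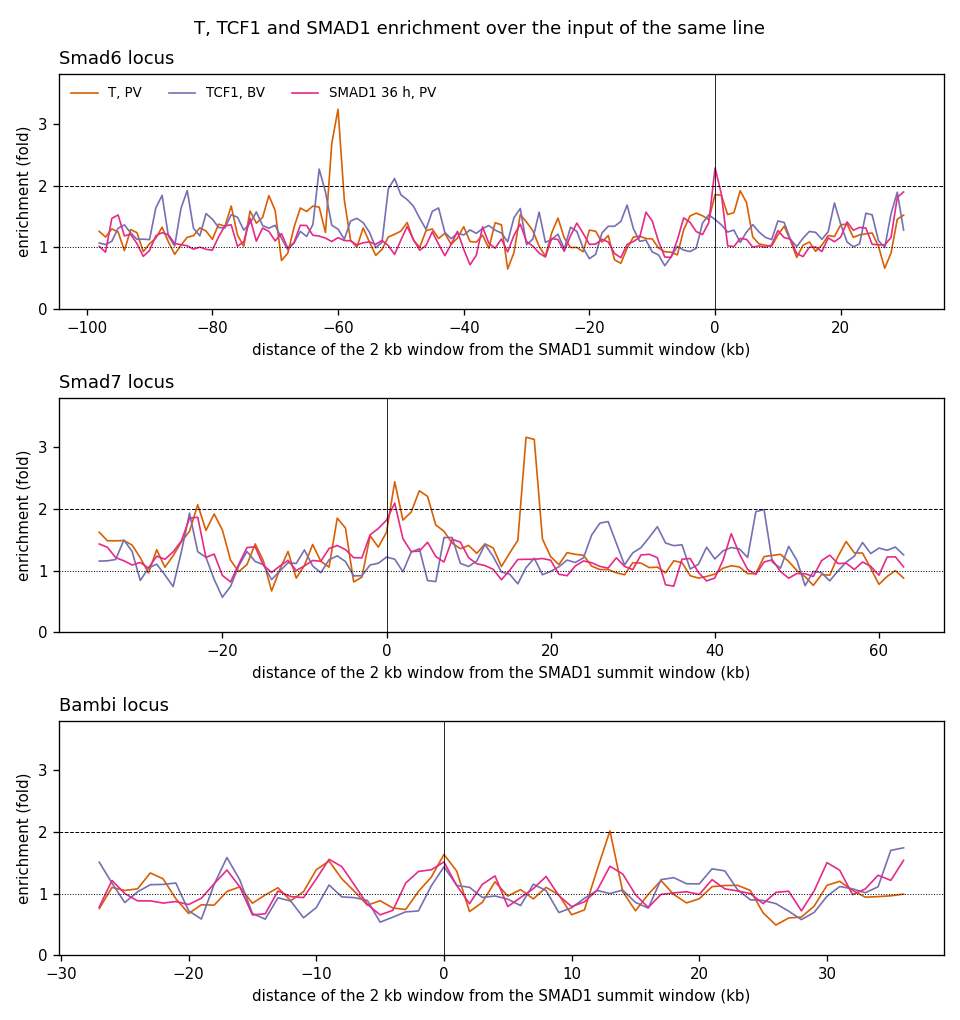
Enrichment over the input of the same line (y axis, fold) for T, TCF1 and SMAD1 at 36 h in PV in each 2 kb window, by distance from the SMAD1 summit window (x axis, kb); the dashed line marks 2-fold. T peaks at 3.23 in the Smad6 locus, 60 kb left of the summit, and at 3.16 in the Smad7 locus, 17 kb right of it, where SMAD1 is at 1.16 and 1.18.

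TCF1 enrichment was at most 2.27 in the 3 loci. At Smad6 it reached this value at 63805001 to 63807001 (66 counts, plain ratio 2.86, 2.08 to 3.91) and 2.11 at 63817001. In its own library, 0.0230% of all windows reached the first of these values. That window began 3 kb from the T peak, where TCF1 itself measured 1.29. At Smad7 it reached 1.99 at 75571001 (50 counts, 2.52, 1.76 to 3.59) and at Bambi 1.74 at 3543001 (39 counts, 2.20, 1.46 to 3.24). At the SMAD1 summits TCF1 measured 1.45, 1.22 and 1.44 at Smad6, Smad7 and Bambi. Its scaled counts were below the locus medians at Smad6 (0.786 against 1.71) and Smad7 (1.02 against 1.48). At Bambi the scaled count was above the median (1.25 against 0.994). The scaled TCF1 counts at these summits were 0.403 (0.207 to 0.762), 0.503 (0.275 to 0.907) and 0.471 (0.277 to 0.792) of the SMAD1 counts at 12 h in the same line. Of the SMAD1 counts at 36 h they were 0.463 (0.228 to 0.930), 0.570 (0.299 to 1.09) and 0.980 (0.503 to 1.98), so the intervals at Smad7 and Bambi included 1. The TCF1 library has no stated time, and the summits were chosen for high SMAD1, which favours ratios below 1, so these ratios are given as a description only.

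**Figure D4:**
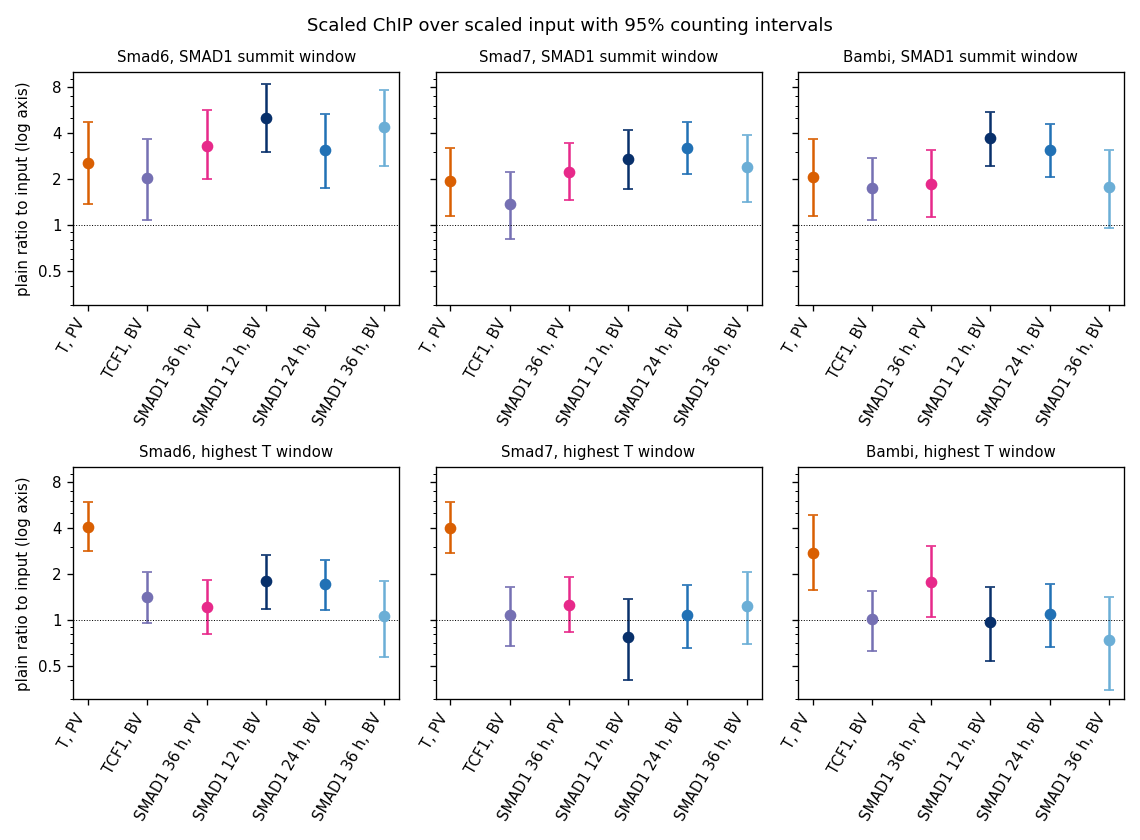
Plain ratio of scaled ChIP to scaled input (y axis, log scale) with 95% counting intervals, for 6 ChIP libraries (x axis) at the SMAD1 summit window (top) and the highest T window (bottom) of each locus. T stands at 4.05 and 4.00 in the Smad6 and Smad7 windows of the bottom row, which were chosen for T, with lower bounds of 2.81 and 2.74, above the upper bounds of the SMAD1 libraries there.

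Over whole loci, all 6 ChIP libraries were slightly above input at Smad6 and Smad7. At Smad6 the ratio of summed scaled counts was 1.32 for T (1.24 to 1.40) and 1.41 for TCF1 (1.34 to 1.47). For SMAD1 it was 1.18 in PV and, in BV, 1.14 at 12 h (1.07 to 1.21), 1.25 at 24 h and 1.25 at 36 h. At Smad7 the ratio was 1.40 for T, 1.25 for TCF1, 1.23 for SMAD1 in PV and, in BV, 1.27, 1.30 and 1.25 for SMAD1 of 12, 24 and 36 h. At Bambi it was 0.988 for T, 0.981 for TCF1 and 1.05 to 1.17 for SMAD1. The median over all windows of the genome was close to 1 in the libraries, for example 0.976 for SMAD1 at 12 h. The raised level of the Smad6 and Smad7 loci was thus common to all 3 antibodies, and a window there starts from a higher base than a window at Bambi. Relative to input BV, input PV stood at 1.08, 1.01 and 1.07 over the Smad6, Smad7 and Bambi loci and input BVSC at 0.920, 0.823 and 0.863.

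Profiles along the loci were alike to differing degrees between libraries. Over every other window, log2 enrichment in the 6 pairs of SMAD1 libraries correlated at 0.22 to 0.59 at Smad6 (65 windows), 0.32 to 0.53 at Smad7 (50) and 0.12 to 0.70 at Bambi (32). At Bambi the lowest pair was PV at 36 h with BV at 12 h, which share no input, and the highest was BV at 36 h with BV at 24 h, which share one and correlated at 0.71 in scaled counts. T and SMAD1 in PV, which share an input, correlated at 0.44, 0.54 and 0.53. These are descriptions across windows of 1 library each, and shared input and mappability enter them.

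SMAD1 regions elsewhere in the genome were compared with the summits by the distance between the log2 enrichments of the 6 ChIP libraries. Among 143 regions called for SMAD1 outside the loci, the closest to the Smad6 summit was on chromosome 12 at 110765001 to 110768001 (distance 0.97). Next were chromosome 7 at 150481001 (1.00) and chromosome 16 at 10186001 (1.05). The closest to both the Smad7 summit (1.19) and the Bambi summit (0.96) was on chromosome 1 at 124252001 to 124254001, with 2.95 at 12 h and 4.28 at 24 h. For Smad7, the chromosome 12 region at 110765001 (1.21) and another at 105882001 (1.41) followed. For Bambi, the chromosome 12 region at 110765001 (1.13) and chromosome 13 at 25142001 (1.25) followed. The chromosome 12 region at 110765001 had an enrichment of 4.39 at 12 h, against 2.76, 2.02 and 2.59 at the Smad6, Smad7 and Bambi summits. All these regions were called at 4-fold or more in a SMAD1 library, which no window of the loci reached. A higher value than at the summits in some SMAD1 library was thus fixed by the call. The strongest SMAD1 window of the genome at 12 h had an enrichment of 21.8.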

How the data were processed

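The deposited files hold whole-number read counts per window, 1 file per library, with no normalization by the authors, as the values show. Per the submitters' processing notes, the software includes Bowtie 0.12.8 and the build is mm9. How duplicate reads and reads with several genome matches were treated is not stated there. Windows are 2 kb and step by 1 kb, so each read is counted in about 2 windows, and sums used every other window. Each ChIP library was set against the input titled with its own line. Windows needed a mean scaled input of at least 0.25 and no input over 3. The summit of a locus was the window whose log2 enrichment, averaged over the 4 SMAD1 libraries, was highest. The named windows also included runs with a mean of 2-fold or more and the highest T, TCF1 and single SMAD1 windows of each locus. The 3 regions nearest each summit were named by Euclidean distance. The single SMAD1 windows, the Smad7 window at 75501001 and the Bambi window at 3506001 were named after their values were seen. With 1 library per group no test was run. A list of other BMP pathway genes was not used here, since no mm9 annotation was given. Of the 3 genes, 1 matched a promoter sequence in RefSeq (GRCm38.p6). The members, lists and rules were chosen with earlier results of these data known. Ratios and intervals were computed with Python 3.11.15, numpy 2.4.6 and scipy 1.17.1. The plain ratio and its interval were tested on simulated counts at randomly drawn windows of moderate input. Enrichment, windows chosen as highest, and input as low as input BV at the Smad6 summit were not simulated.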

Additional observations from a re-analysis of the deposited data

How the results depend on the processing

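Counts of windows at 2-fold or more depended on every choice that moves low values, listed here for T, for TCF1, for SMAD1 in PV and then for the 3 SMAD1 libraries of BV by time. They were 9, 2, 2, 5, 3 and 2 as reported. They were 17, 16, 9, 14, 9 and 14 with a pseudocount of 0.1 and 4, 0, 0, 3, 0 and 1 with a pseudocount of 1. Scaling by the locus median gave 4, 0, 0, 2, 1 and 1. Thinning every library to the shallowest ChIP library gave 16, 15, 7, 11, 9 and 9. A threshold of 1.5 gave 45, 39, 19, 30, 29 and 37, and a threshold of 3 gave 3, 0, 0, 0, 0 and 0. Input BVSC for every library gave 23 for T, 8 for TCF1, 6 for SMAD1 at 36 h in PV, 10 at 24 h and 6 at 36 h in BV. The mean of the 3 inputs gave 1 for TCF1, 6 for SMAD1 at 36 h in PV and 3 at 12 h. The locus mean of the input, an alternative chosen after seeing the data, gave 0 for SMAD1 in PV and 2, 0 and 0 for the BV libraries by time. Why the counts moved was not tested beyond this.

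SMAD1 at 12 h at the Smad6 summit was 4.21 with a pseudocount of 0.1 and 1.41 with the locus mean of the input. In the Bambi window highest in SMAD1 at 36 h in PV, the 12 h enrichment was below 1 (0.803), the difference between 24 and 12 h was 0.50 and that between 36 and 12 h was reversed, at 0.93. Thinning, a single random draw, gave 2.84 for the highest TCF1 value at Smad7 and -0.90 for PV minus BV at Bambi. Scaling by the locus median gave 1.68 for the highest TCF1 value at Smad6. The highest T value ranged from 2.54 to 3.84 at Smad6, from 2.33 to 3.78 at Smad7 and from 1.57 to 2.52 at Bambi. No paired analysis was possible because each group had 1 library. At 11.8 to 34.2 counts per mean window, intervals of single-window ratios were wide. At the Bambi summit the scaled SMAD1 count at 36 h in BV was 0.571 of that at 24 h (0.293 to 1.05), and at the Smad6 summit 24 h was at 0.614 of 12 h (0.335 to 1.11), and both intervals included 1.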
